A study of Mus musculus with 6 samples.

Results

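The mouse globin genes and the globin chaperone were followed through 6 RNA-seq libraries of bone marrow cells. The 8 genes were Hba-a1 and Hba-a2 (adult alpha globins), Hbb-bs and Hbb-bt (adult beta globins), Hba-x, Hbb-y and Hbb-bh1 (embryonic globins) and Ahsp, which encodes the alpha-haemoglobin stabilising protein. They were chosen by gene symbol, and 7 of the 8 symbols were found among the 56496 genes of the deposited table. No row carried the symbol Ahsp. A gene with 1 transcript assembled by the authors carried the protein annotation of the chaperone, and its values are given here as the Ahsp transcript, chosen outside the symbol rule.

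Onway, a preparation whose contents the labels do not state, was given by gavage over 2 weeks to the mice behind Onway 1, Onway 2 and Onway 3 (labelled day 14). Control 4, Control 5 and Control 6 (labelled day 0) came from mice without it, so the effect of Onway and that of the labelled day cannot be told apart. Both groups were female BALB/c mice after removal of a 4T1 tumour, which grows from a mammary carcinoma cell line of the mouse. Separate mice per library are not stated in the labels, and p-values then measure only the spread between these samples, which may be technical. Values are TPM, a transcript abundance per length scaled to the same total in each library, summed here from transcripts to genes. TPM keeps no read depth, so the precision set by depth is unknown.

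Haemoglobin is assembled from alpha-type and beta-type globin chains, each holding a haem group, and marrow erythroblasts make it in large amounts as they mature. The chains are made from separate gene clusters, so a balance between them is needed, and free alpha chains are unstable. Ahsp protein binds free alpha chains and keeps them from precipitating. In the mouse the embryonic globins are made mainly in the primitive red cells of the yolk sac and are replaced by the adult chains before birth.

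In the reference genome the adult copies within each cluster are nearly the same sequence, which bears on how their reads can be told apart. In GRCm38 the alpha genes lie on the plus strand of chromosome 11, Hba-a1 at chr11:32283511-32284465 and Hba-a2 at chr11:32296489-32297298. The beta genes lie on the minus strand of chromosome 7, Hbb-bs at chr7:103826534-103828096 and Hbb-bt at chr7:103812524-103813996. The 429 coding bases of Hba-a1 and Hba-a2 differed by 1 base, C381T, and the 444 coding bases of Hbb-bs and Hbb-bt differed by 1 base, C417T. Positions count from 1 at the first coding base, with the base of the first-named gene first. The sequences around each difference are shown with the differing base in capitals, 51 bases from GRCm38, at chr11:32284318-32284368 and chr11:32297135-32297185 for the alpha genes and chr7:103826667-103826717 and chr7:103812658-103812708 for the beta genes.
Hba-a1: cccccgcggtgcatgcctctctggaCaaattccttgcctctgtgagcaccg
Hba-a2: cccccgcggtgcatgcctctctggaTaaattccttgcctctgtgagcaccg
Hbb-bs: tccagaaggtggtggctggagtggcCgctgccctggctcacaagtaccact
Hbb-bt: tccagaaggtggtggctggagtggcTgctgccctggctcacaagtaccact

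The main annotated transcripts of a pair also differ in length, with 699 bases for Hba-a1, 554 for Hba-a2, 628 for Hbb-bs and 703 for Hbb-bt. A stretch that reaches past the annotated end of the other copy counts as not shared. The shares that follow therefore do not measure base differences alone. Of all stretches of 50 bases in the main annotated transcript, 67.5% of those of Hba-a1 also occurred in Hba-a2, and 86.9% of those of Hba-a2 occurred in Hba-a1. The same share was 65.8% of the stretches of Hbb-bs found in Hbb-bt and 58.3% of those of Hbb-bt found in Hbb-bs. How the authors divided reads between copies was not given in the sources used here, so the level of each copy is uncertain and the sum of a pair is less so. The reference genome is from C57BL/6J, whose beta cluster carries Hbb-bs and Hbb-bt. BALB/c mice carry another form of the cluster, with adult genes named Hbb-b1 and Hbb-b2, and the table held no row under those symbols. The beta sequences compared here are therefore those of the reference and not of these mice. How reads from the BALB/c genes were assigned was not tested.

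The embryonic genes differ from the adult ones at many more bases. Hba-x shared 62.0% of coding bases with Hba-a1, Hbb-bh1 shared 74.1% with Hbb-bs, and Hbb-y shared 74.3% with Hbb-bs. The first 60 coding bases of each embryonic gene are shown beside the adult gene of its cluster, with capitals where an embryonic gene differs, because these differences decide which reads can be assigned to genes listed near 0. They lie at chr11:32283707-32283766 (Hba-a1), chr11:32276664-32276723 (Hba-x), chr7:103827816-103827875 (Hbb-bs), chr7:103843051-103843110 (Hbb-bh1) and chr7:103853093-103853152 (Hbb-y) in GRCm38.
Hba-a1: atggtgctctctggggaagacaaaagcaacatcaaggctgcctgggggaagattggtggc
Hba-x: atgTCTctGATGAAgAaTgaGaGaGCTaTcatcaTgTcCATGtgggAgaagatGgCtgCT
Hbb-bs: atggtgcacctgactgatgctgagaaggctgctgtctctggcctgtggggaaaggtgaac
Hbb-bh1: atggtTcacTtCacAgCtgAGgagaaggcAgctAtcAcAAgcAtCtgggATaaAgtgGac
Hbb-y: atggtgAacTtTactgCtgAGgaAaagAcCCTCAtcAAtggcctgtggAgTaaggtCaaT

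The adult globins took a large part of all transcripts, and that part varied more among libraries of a group than between the groups. Summed over the 7 globin genes, the share of TPM was 13.3%, 9.38% and 33.9% in Onway 1, Onway 2 and Onway 3, against 26.6%, 11.6% and 18.3% in Control 4, Control 5 and Control 6. Onway 3 was the highest library and Onway 2 the lowest, so the Control values lay inside the range of the Onway values. The mean was 18.9% ± 13.1 in Onway and 18.8% ± 7.48 in Control (SD, n = 3 each, exact two-sided permutation p = 1). The smallest p that 3 against 3 libraries can give is 0.1.

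The alpha globins were led by Hba-a2. Hba-a2 stood at 50647.5, 41031.5 and 120524 TPM in Onway 1, Onway 2 and Onway 3, against 93324.3, 40271 and 74608 TPM in Control 4, Control 5 and Control 6. It was the most abundant gene of the library in Onway 3 and Control 4, and ranked 2 or 3 in the others. Hba-a1 stood at 32640, 17940.2 and 83450 TPM in the Onway libraries in the same order, against 67873.1, 28684.6 and 35770 TPM in the Control libraries. Onway 3 was the highest library for both genes, and the groups overlapped. Across the 6 libraries Hba-a1 varied 4.65-fold between highest and lowest, and Hba-a2 varied 2.99-fold.

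The adult beta globins followed the same order of libraries as Hba-a1. Hbb-bs stood at 37213.1, 25465.2 and 99953.5 TPM in Onway 1, Onway 2 and Onway 3, against 76488.9, 35068.1 and 53795.1 TPM in Control 4, Control 5 and Control 6. Hbb-bt stood at 12990.7, 9373.49 and 34746.2 TPM in the Onway libraries, against 27849.2, 12258.2 and 18478.1 TPM in the Control libraries. For Hbb-bs, Hbb-bt and Hba-a1 alike the order was Onway 3, Control 4, Control 6, Onway 1, Control 5 and Onway 2, from high to low. Only the last pair was exchanged for Hba-a2. Within each of the 6 libraries the levels ran Hba-a2, Hbb-bs, Hba-a1 and Hbb-bt, from high to low, although the ranges of neighbouring genes over libraries overlapped.

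The Ahsp transcript stood at 1168.21, 1056.97 and 1840.37 TPM in Onway 1, Onway 2 and Onway 3, against 2464.42, 947.28 and 1328.44 TPM in Control 4, Control 5 and Control 6. Here the highest library was Control 4 and the lowest Control 5, so the Onway values lay inside the Control range. The spread over libraries was 2.60-fold, narrower than that of any adult globin gene.

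**Figure D1:**
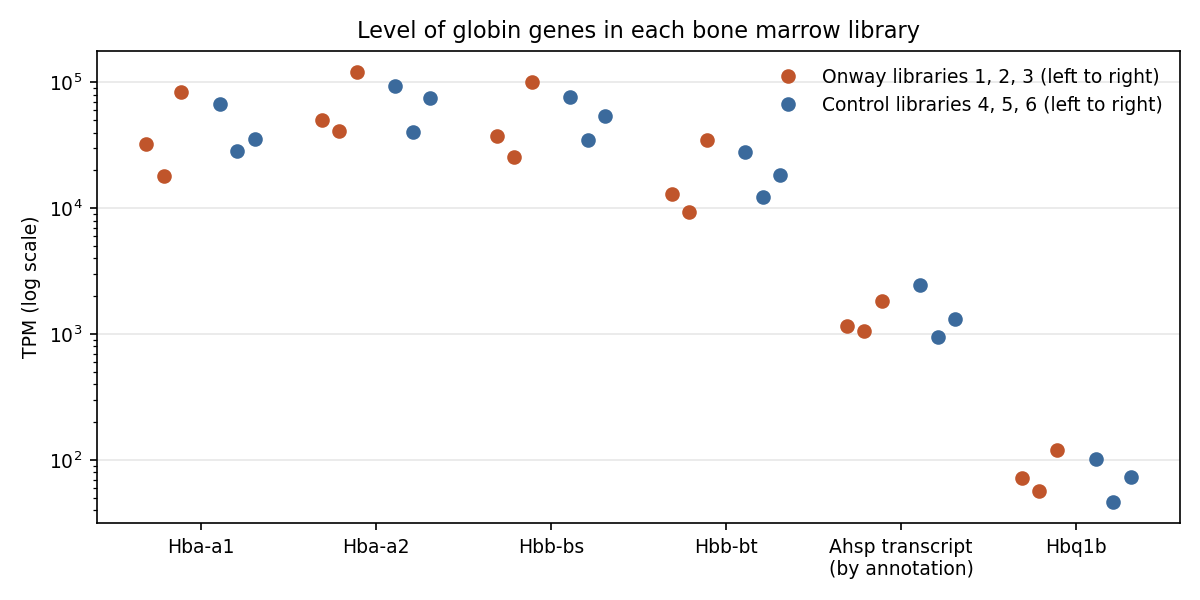
Level of the adult globin genes, the Ahsp transcript and the globin-like gene Hbq1b, in TPM on a log scale. Each point is 1 library, with Onway 1, 2 and 3 left of Control 4, 5 and 6; the groups overlap for every gene shown, and Onway 3 and Control 4 are the 2 highest libraries of each.

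No member passed the test between the groups. In limma's moderated test over the 14192 genes averaging 1 TPM or more, 0 of the 5 members tested had an adjusted p under 0.05, against 3.22% of all genes called (424 lower and 33 higher in Onway). None of the 5 had an unadjusted p under 0.05, which 1897 of all genes had. On the log2(TPM + 1) scale the difference was -0.17 ± 0.62 for Hba-a1, -0.05 ± 0.49 for Hba-a2, -0.20 ± 0.55 for Hbb-bs, -0.19 ± 0.54 for Hbb-bt and -0.15 ± 0.38 for the Ahsp transcript (Onway minus Control, ± SE). Their adjusted p values in limma were 0.944, 0.979, 0.925, 0.928 and 0.918 in that order, and the median difference over all genes was 0.03.

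The intervals leave room for sizeable differences. The 95% interval of the fold change ran over 0.312 to 2.53 for Hba-a1, 0.429 to 2.16 for Hba-a2, 0.345 to 2.19 for Hbb-bs, 0.352 to 2.18 for Hbb-bt and 0.480 to 1.69 for the Ahsp transcript. The direction depended on single libraries. Without Onway 2, or without Control 4, all 5 differences were positive, and without Onway 3 all 5 were negative, with -0.77 for Hbb-bs and -0.52 for Hba-a2. Without Onway 1, or without Control 6, the difference of Hba-a2 alone was positive, at 0.10 and 0.04.

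The balance between the chains was far steadier than their level. Summed alpha globin stood at 83287.5, 58971.7 and 203974 TPM in Onway 1, Onway 2 and Onway 3, against 161197, 68955.6 and 110378 TPM in Control 4, Control 5 and Control 6. Summed adult beta globin stood at 50203.8, 34838.7 and 134700 TPM in the Onway libraries, against 104338, 47326.3 and 72273.1 TPM in the Control libraries. The alpha to beta ratio was therefore 1.66, 1.69 and 1.51 in the Onway libraries, against 1.54, 1.46 and 1.53 in the Control libraries. Onway 1 and Onway 2 lay above all 3 Control libraries, and Onway 3 lay among them.

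The mean alpha to beta ratio was 1.62 ± 0.0948 in Onway and 1.51 ± 0.0465 in Control, a difference of 0.112 (SD, n = 3 each, exact two-sided permutation p = 0.3, 0.9 after Benjamini-Hochberg adjustment over the 6 ratios and shares tested). Over the 6 libraries the SD of the log2 ratio was 0.0829, against 0.717 for the log2 of the summed adult globins. TPM divides by transcript length, and part of the level of Hba-a1, Hba-a2 and Hbb-bt, but not of Hbb-bs, was carried by longer assembled transcripts. The ratio is therefore one of transcript abundance as modelled by the authors and is not a ratio of protein chains.

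As listed under the reference genes, the beta copies kept a nearly fixed proportion, whereas the alpha copies did not. Hbb-bs made up 74.1%, 73.1% and 74.2% of adult beta globin in Onway 1, Onway 2 and Onway 3, against 73.3%, 74.1% and 74.4% in Control 4, Control 5 and Control 6. Group means were 73.8% ± 0.619 and 73.9% ± 0.577 (Onway and Control, SD, n = 3 each, exact two-sided permutation p = 0.7), and the SD of the log2 ratio of Hbb-bs to Hbb-bt was 0.0403. Hba-a1 made up 39.2%, 30.4% and 40.9% of adult alpha globin in the Onway libraries, against 42.1%, 41.6% and 32.4% in the Control libraries. Onway 2 and Control 6 stood low, 1 in each group, and the other 4 libraries lay between 39.2% and 42.1%. Group means were 36.8% ± 5.63 in Onway and 38.7% ± 5.46 in Control (SD, n = 3 each, exact two-sided permutation p = 0.5), and the SD of the log2 ratio of Hba-a1 to Hba-a2 was 0.318.

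The shares were then set beside the single transcripts of each gene. The members had 23 transcripts in the table, 12 from Ensembl and 11 assembled by the authors, and 3 were listed at 0 in all 6 libraries. Hba-a1 also had an annotated transcript with a retained intron, which held 0.923%, 0.460% and 0.872% of the gene's TPM in Onway 1, Onway 2 and Onway 3, against 0.976%, 0.851% and 0.463% in Control 4, Control 5 and Control 6. Its share was low in Onway 2 and Control 6, the same libraries in which Hba-a1 as a whole took a low share of alpha globin. The retained-intron transcript of Hba-a2, at 6.54 TPM or less, had its highest shares of the gene there, 0.00656% and 0.00877%. In the others it held 0.00263% or less. That of Hbb-bs held 0.410% to 0.936% of its gene and was highest in Control 4. The main Ensembl transcript of Hba-a1 held between 98.1% and 98.3% of the gene in every library.

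Hbb-bt differed from the other adult genes in the weight of assembled transcripts. They held 47.6%, 50.8% and 47.2% of its TPM in Onway 1, Onway 2 and Onway 3, against 41.5%, 50.9% and 51.2% in Control 4, Control 5 and Control 6. Control 4 was the lowest library, and the groups overlapped. For Hba-a2 the assembled share ran over 6.14% to 8.89% of the gene in the Onway libraries and 6.90% to 7.84% in the Control libraries, and Hbb-bs had no assembled transcript. With Ensembl transcripts alone, the small difference in the Hbb-bs share of beta globin changed sign, to 0.0946 percentage points higher in Onway.

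Relative to its client chain, the Ahsp transcript stood at 14.03, 17.9 and 9.02 TPM per 1000 TPM of alpha globin in Onway 1, Onway 2 and Onway 3, against 15.3, 13.7 and 12.0 in Control 4, Control 5 and Control 6. Onway 2 was the highest library and Onway 3 the lowest, the reverse of their place in globin level. Alpha globin is the denominator here and spread more over libraries than the Ahsp transcript, 3.46-fold against 2.60-fold. By its arithmetic the ratio therefore tends to be low where alpha globin is high. The mean was 13.7 ± 4.46 in Onway and 13.7 ± 1.63 in Control (SD, n = 3 each, exact two-sided permutation p = 1).

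**Figure D2:**
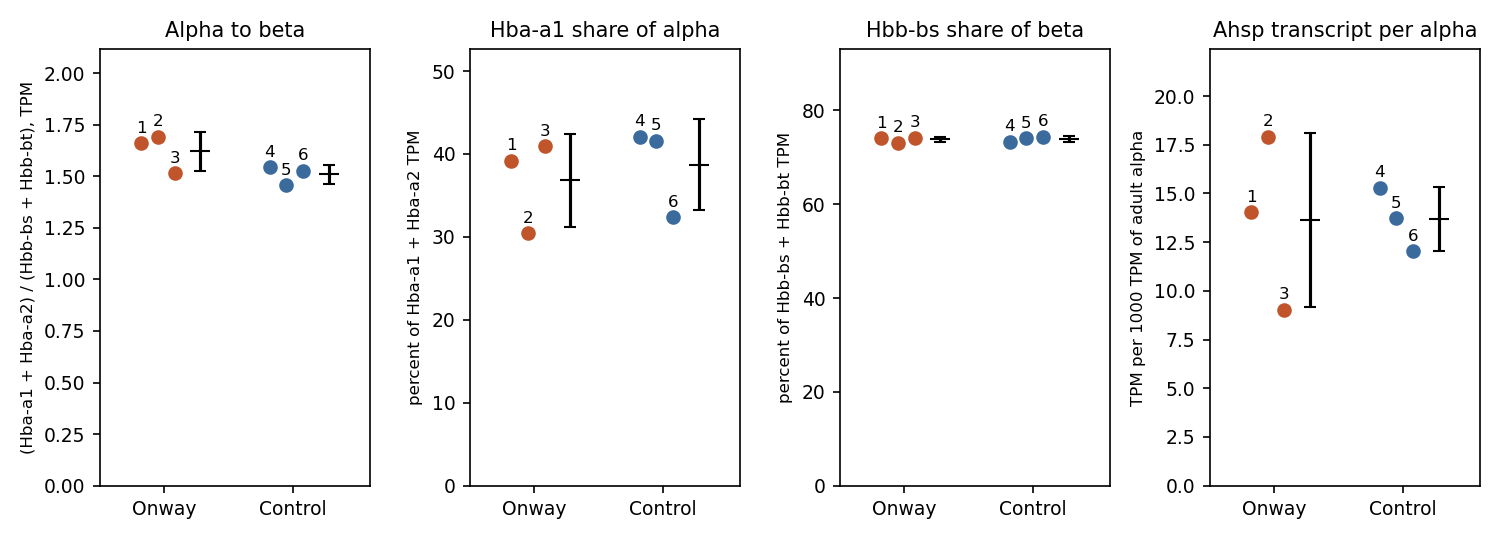
Ratios and shares in each library, with Onway left of Control and the library number above each point. Panels give the alpha to beta ratio of TPM, Hba-a1 as percent of alpha globin, Hbb-bs as percent of adult beta globin, and the Ahsp transcript per 1000 TPM of alpha globin; the bar is the mean and its whiskers are 1 SD (n = 3 each). The Hbb-bs share is nearly level at 73.1% to 74.4%, while Onway 2 and Control 6 sit apart in the Hba-a1 share.

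Embryonic globins were listed at under 1 TPM in every library, far below every adult globin gene. Hbb-bh1, a beta-type chain of primitive red cells, stood at 0.14, 0.43 and 0.41 TPM in Onway 1, Onway 2 and Onway 3, against 0.12, 0.11 and 0.11 TPM in Control 4, Control 5 and Control 6. All 3 Onway values lay above the Control values, Onway 1 by a small margin. Hbb-y, the epsilon-type chain, was listed at 0.26, 0 and 0.19 TPM in the Onway libraries, against 0.12, 0 and 0 TPM in the Control libraries. Hba-x, the zeta-type chain, was listed at 0, 0.1 and 0.23 TPM in the Onway libraries, against 0.41, 0.13 and 0 TPM in the Control libraries. For both genes the groups overlapped, and each was at 0 in at least 1 library of each group.

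These 3 genes fell under the minimum of 1 TPM and were not tested in the fit over all genes. When the minimum was dropped, limma gave adjusted p values of 0.483 for Hbb-bh1, 0.671 for Hbb-y and 0.839 for Hba-x. Among the 8 members Hbb-bh1 was the 1 whose groups did not overlap. Of the 5 members above the minimum the groups overlapped for all, whereas they did not for 18.4% of the 14192 genes tested. Such a share was not calculated for genes under the minimum. Per 1000000 TPM of globin, the 3 genes together made up 3.00, 5.65 and 2.45 TPM in Onway 1, Onway 2 and Onway 3, against 2.45, 2.06 and 0.602 in Control 4, Control 5 and Control 6. The means were 3.70 ± 1.71 in Onway and 1.70 ± 0.974 in Control (SD, n = 3 each, exact two-sided permutation p = 0.1, the smallest the design allows, and 0.6 after adjustment over the 6 measures). The groups did not overlap, but by a narrow margin, with 2.451 in Onway 3 and 2.448 in Control 4. This separation depended on the division by globin. Left undivided, the sum of the 3 genes was higher in Control 4 (0.65 TPM) than in Onway 1 (0.40 TPM) or Onway 2 (0.53 TPM). Group means of this sum differed by 0.253 TPM, higher in Onway (exact two-sided permutation p = 0.3). At levels this low a value can rest on few reads, and the number of reads is unknown.

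The authors' deposited table also gave a mean per group, which differed from the mean of the 3 libraries. If each mean is over 4 values, which is assumed here, a further value per group remains. It was calculated here and is not listed by the authors. Its calculated adult globin share was 18.7% in Onway and 26.0% in Control. The calculated alpha to beta ratio was 1.59 in Onway and 1.61 in Control. For the Hba-a1 share of alpha globin the calculation gave 39.4% in Onway and 31.8% in Control. Hbb-bh1 came to 0 TPM in Onway and 0.8 TPM in Control by the same calculation. That is the opposite order to that of the 3 libraries of each group. These values entered no test.

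The rest of the globin family was described beside the members. Of 9 further globin genes listed, 7 had a row and 3 passed the minimum level, of which 1 was lower and none was higher in Onway. Hbq1b, a theta-type globin of the alpha cluster, stood at 72.39, 56.99 and 120.44 TPM in Onway 1, Onway 2 and Onway 3, against 101.72, 46.75 and 72.81 TPM in Control 4, Control 5 and Control 6. It ordered the libraries much as the adult globins did, and its difference was 0.17 ± 0.36 (log2, SE, adjusted p = 0.894 in limma). Hbq1a, the other theta-type gene, had a log2 difference of 0.24 ± 0.64 (SE, adjusted p = 0.922 in limma). Cygb, which encodes cytoglobin, fell under the minimum level and was not tested. It stood at 0.21 to 0.28 TPM in Onway and 1.04 to 2.30 TPM in Control. Hbb-bh2, also under the minimum, stood at 0 TPM in every Onway library, against 0.15, 0.14 and 0.38 TPM in Control 4, Control 5 and Control 6. Its groups did not overlap either, in the direction opposite to that of Hbb-bh1.

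Mb encodes myoglobin, the oxygen-binding globin of muscle, and was the 1 of the 3 tested that changed. Mb stood at 0, 0.22 and 0 TPM in Onway 1, Onway 2 and Onway 3, against 42.64, 10.27 and 60.18 TPM in Control 4, Control 5 and Control 6. The groups lay far apart, with a log2(TPM + 1) difference of -4.86 ± 0.62 (SE, adjusted p = 0.0119 in limma). Leaving out Onway 1, Onway 2 or Onway 3 gave adjusted p values of 0.0703, 0.0558 and 0.0666 for Mb, and a pseudocount of 10 gave -2.07 with an adjusted p of 0.130. All 8 skeletal muscle markers tested were also lower in Onway, against 2.99% of all genes called lower, with summed levels of 16.65 to 24.37 TPM in Onway and 717.48 to 4617.97 TPM in Control. Of these markers Tnnc2 and Pvalb were at 0 in Onway 3, and none was at 0 in another library. The part of muscle RNA in the Mb difference was not tested.

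Other gene groups of the red cell programme showed no called change either. Over the 8 lists of related genes, 74 genes were tested, and Mb was the 1 called, against 3.22% of all genes. The 8 enzymes of haem synthesis, which make the prosthetic group of globin, had a median log2 difference of 0.07 and adjusted p values of 0.910 or more in limma. Alas2, the erythroid enzyme of the first step, stood at 560.65, 432.09 and 1205.38 TPM in Onway 1, Onway 2 and Onway 3, against 1020.93, 346.87 and 629.53 TPM in Control 4, Control 5 and Control 6. Onway 3 and Control 4 were again the highest. Ppox, Cpox and Uros, later enzymes of the pathway, had the smallest p of the list, with log2 differences of 0.12 ± 0.29, 0.23 ± 0.65 and 0.12 ± 0.35 (SE).

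The 11 transcriptional regulators of globin genes had a median log2 difference of 0.05 and a lowest adjusted p of 0.477 in limma. Myb, a regulator of progenitors, stood at 75.48, 110.14 and 78.81 TPM in Onway 1, Onway 2 and Onway 3, against 68.60, 67.76 and 65.48 TPM in Control 4, Control 5 and Control 6. Its groups did not overlap, and its log2 difference was 0.36 ± 0.19 (SE). Bcl11a, which represses embryonic beta-type globins, had a log2 difference of 0.41 ± 0.22 (SE, adjusted p = 0.501 in limma). Zfpm1, the cofactor of Gata1, had one of 0.50 ± 0.47 (SE, adjusted p = 0.715 in limma).

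The 16 genes of iron uptake and the red cell membrane had a median log2 difference of 0.05, with adjusted p values of 0.885 or more in limma. Sptb and Epb42, parts of the membrane skeleton, and Slc25a38, a mitochondrial carrier, had the smallest p, with differences of 0.25 ± 0.51, 0.22 ± 0.51 and -0.13 ± 0.29 (log2, SE). The 8 progenitor genes had a median of -0.08 and a lowest adjusted p of 0.467 in limma, for Samd14 (-0.58 ± 0.30, log2, SE). Gfi1b and Cd24a followed it with -0.28 ± 0.43 and 0.15 ± 0.24 (log2, SE).

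The 13 late erythroid genes had a median log2 difference of -0.05. Alox15, a lipoxygenase that acts on organelle membranes in maturing red cells, came nearest to the threshold. It stood at 151.62, 109.06 and 71.12 TPM in Onway 1, Onway 2 and Onway 3, against 47.34, 54.46 and 47.52 TPM in Control 4, Control 5 and Control 6. The groups did not overlap, and the difference was 1.07 ± 0.27 (log2, SE, adjusted p = 0.105 in limma). Among the Onway libraries Alox15 was lowest in Onway 3, where the globins were highest. Mkrn1 and Trim58, ubiquitin ligases, had log2 differences of -0.27 ± 0.29 and -0.26 ± 0.38 (SE).

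Genes of globin translation and chain balance were measured as a further group of 7, with a median log2 difference of 0.19 and no gene called. Atf4, a stress transcription factor, had a difference of 0.36 ± 0.21 (log2, SE, adjusted p = 0.525 in limma), Hspa8, a chaperone, one of 0.39 ± 0.25, and Ulk1, an autophagy kinase, one of 0.19 ± 0.18. The genes that clear haemoglobin and haem had a median of -0.27 over the 8 of 9 tested, and none was called. Cd163, the macrophage receptor for haemoglobin bound to haptoglobin, stood at 7.79, 5.23 and 5.95 TPM in Onway 1, Onway 2 and Onway 3, against 11.25, 8.51 and 13.07 TPM in Control 4, Control 5 and Control 6. Every Onway value lay below the Control values, with a log2 difference of -0.70 ± 0.22 (SE, adjusted p = 0.197 in limma). Blvra, a biliverdin reductase, and Slc40a1, the iron exporter, had differences of -0.36 ± 0.19 and -0.32 ± 0.24 (log2, SE). Tissue macrophage markers, summed, stood at 121.59 to 155.29 TPM in Onway and 226.93 to 366.36 TPM in Control, and none was at 0. Of the 8 tested, 1 was called lower, against 2.99% of all genes, and their median log2 difference was -1.15. The difference was negative for 7 of the 8, against 46.4% of all genes, and the groups did not overlap for 6, against 18.4%. The part of these markers in the Cd163 values was not tested. Across the 8 lists the groups did not overlap for 5 of 74 genes, against 18.4% of all tested genes.

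**Figure D3:**
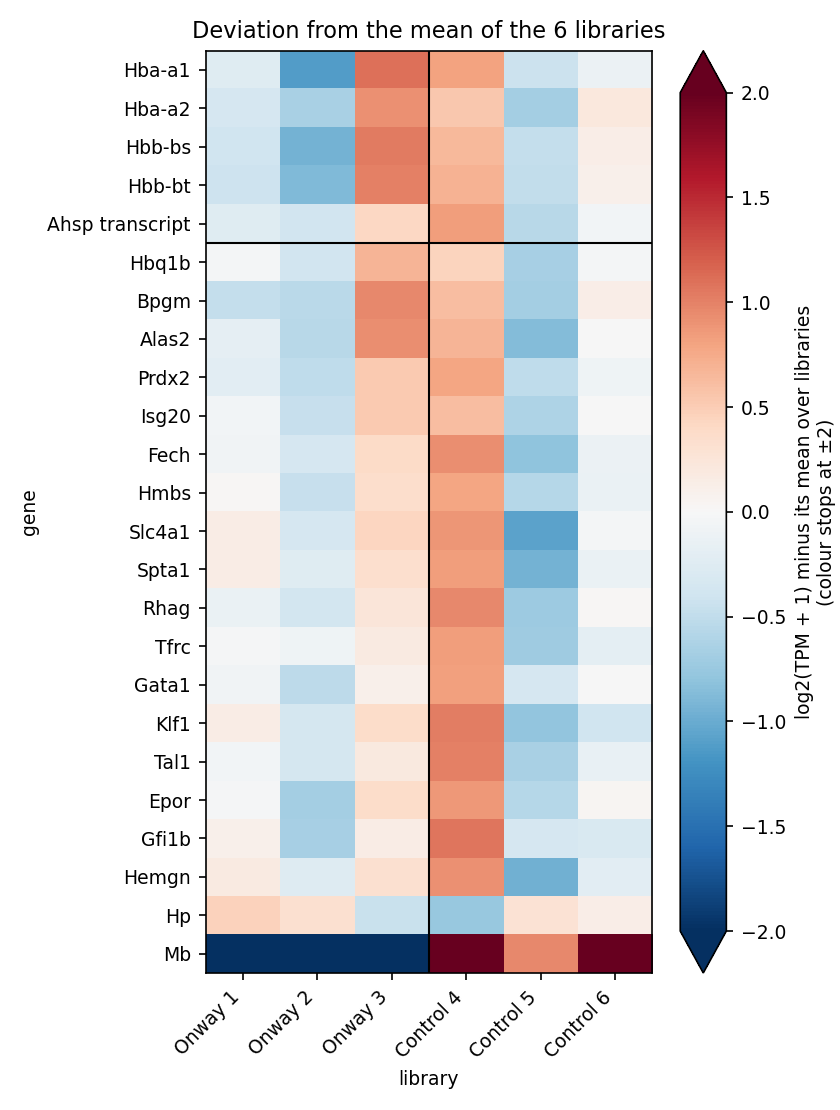
Deviation of each gene from its mean over the 6 libraries, in log2(TPM + 1), with Onway 1 to 3 left of Control 4 to 6 and colours that stop at 2 in either direction. The upper 5 rows are members and the lower rows are genes of the related lists; Onway 3 and Control 4 are the high columns for the adult globins, whereas Mb is low in all 3 Onway libraries.

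The genes closest to the adult globins across libraries were found from the SD of the log2 ratio to the summed adult globins, over the 7259 genes averaging 10 TPM or more. This is a description over 6 libraries, in which every gene was set against the same globin sums, and a small SD says only that the ratio was steady. The 10 lowest values ran over 0.166 to 0.313, against a median of 0.856. Bpgm, which makes 2,3-bisphosphoglycerate in red cells, came first. Also among them were Fam220a (0.169), Alas2 (0.221) and Prdx2 (0.292), a red cell peroxiredoxin. A second gene under the symbol Fam220a (0.293), Marchf2 (0.300), Asb17os (0.302), Isg20 (0.310) and Hbq1b (0.313) had the next values. The Ahsp transcript had 0.356. Slc4a1 and Klf1, standard genes of the erythroid lineage, stood further down, at ranks 133 and 178 with 0.490 and 0.514.

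Globin level and the rest of the erythroid programme did not keep one proportion over the libraries. Adult globin per TPM of Bpgm was 1209, 885 and 1124 in Onway 1, Onway 2 and Onway 3, against 1117, 1209 and 1079 in Control 4, Control 5 and Control 6. Per TPM of the 8 haem synthesis genes it was 72.2, 68.5 and 118 in the Onway libraries, against 82.4, 103 and 103 in the Control libraries. Per TPM of the 16 membrane and iron genes it was 66.0, 60.3 and 138 in the Onway libraries, against 76.3, 112 and 102 in the Control libraries. Onway 1 and Onway 2 were the lowest 2 libraries in the last pair of ratios and Onway 3 was the highest. Per TPM of the 11 regulators the value was 166, 133 and 429 in the Onway libraries, against 249, 201 and 271 in the Control libraries, with the same libraries at each end. Nfe2, the regulator with the highest mean in each group, was itself lowest in Onway 3, at 165.41 TPM. From highest to lowest library the ratio spread 1.37-fold for Bpgm, 1.73-fold for haem synthesis, 2.28-fold for membrane and iron genes and 3.23-fold for the regulators.

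**Figure D4:**
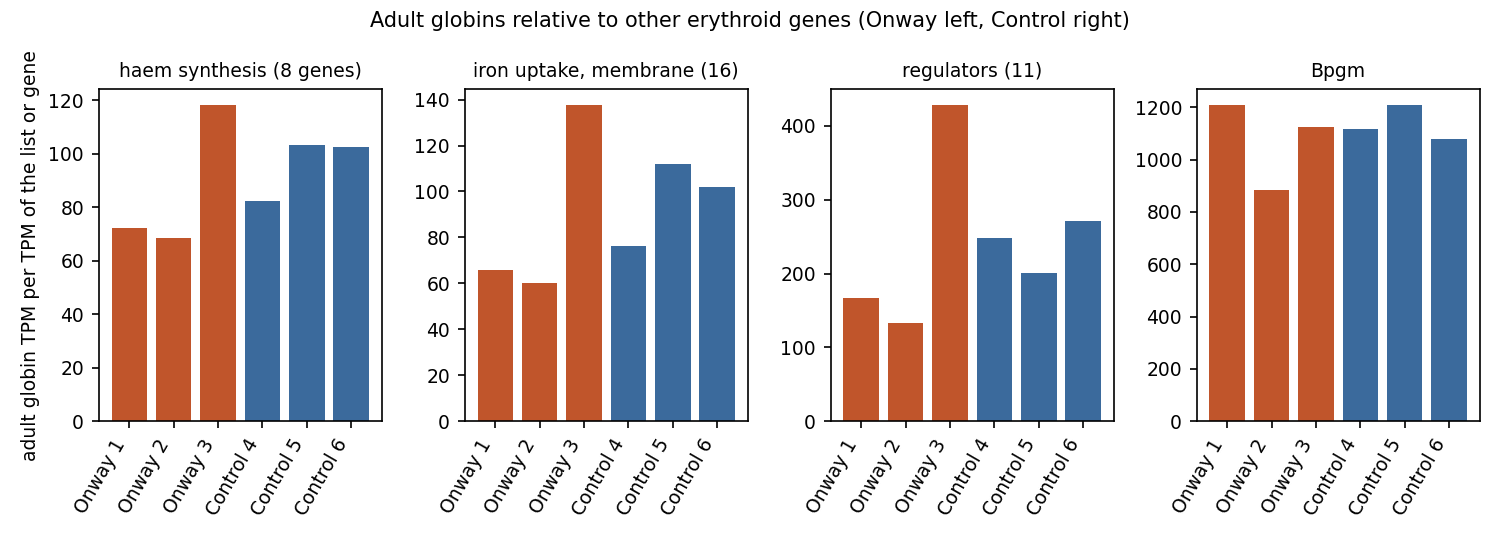
Summed adult globin TPM per TPM of the haem synthesis genes, the iron uptake and membrane genes, the regulators and Bpgm, for each library, with Onway left of Control. Onway 3 has the highest bar in the first 3 panels (118, 138 and 429) and Onway 1 and Onway 2 the lowest, while the bars for Bpgm run from 885 to 1209.

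Markers of the erythroid lineage and of neutrophils differed among libraries as well. Erythroid markers were present in every library, with all 9 tested and none called, and their sum stood at 1977.79, 1476.94 and 2888.24 TPM in Onway 1, Onway 2 and Onway 3, against 3420.58, 1068.32 and 1819.93 TPM in Control 4, Control 5 and Control 6. Neutrophil markers, summed, stood at 185929, 190632 and 107078 TPM in the Onway libraries, against 97277.4, 211121 and 174826 TPM in the Control libraries. This sum was lowest in Onway 3 and Control 4, the libraries with the most globin. Rescaled to a total of 1000000 TPM without the adult globins, it was still lowest there, at 161915 in Onway 3 and 132447 in Control 4, against at least 210366 in the others. S100a9 and S100a8 made up most of the sum, at 91094.8 and 37234 of 161213 TPM in the Onway mean. Elane, Mpo and Fcnb were lower in Onway 2 than in Control 4, unlike the other listed neutrophil markers. Of the 11 tested none was called. The groups did not overlap for 2, Elane and Fcnb, both lower in Onway, against 18.4% of all genes tested. In bulk marrow, fewer cells of a type and less RNA per cell cannot be told apart, and a high globin share lowers the TPM of every other gene. Lower in Onway were 8 of 8 megakaryocyte, 6 of 6 endothelial, 8 of 8 muscle and 6 of 8 bone markers, against 2.99% of all genes called lower. Of the other bone markers, Col1a1 had a log2 difference of -5.12 and Mmp9 one of 0.52, with adjusted p values of 0.0516 and 0.480 in limma. The part of these cell types in the globin values was not tested.

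The promoters of the adult genes are shown because their transcripts moved together across libraries. The 200 bases before the RefSeq start are printed for GRCm38.p6, with 4 motifs in capitals, searched on both strands. The first was GATAA, the core read by GATA factors, with TTATC on the opposite strand. The second was the box CACCC, the core read by Klf1 and its relatives, with GGGTG on the opposite strand. The others were the box CCAAT, with ATTGG on the opposite strand, and the box TATAA, with TTATA there. No match in the printed windows shared a base with another. They lie at chr11:32296292-32296491 on the plus strand for Hba-a2, and at chr7:103827929-103828128 and chr7:103813924-103814123 on the minus strand for Hbb-bs and Hbb-bt. For every adult copy the annotated gene starts further upstream than the RefSeq start, so part of each printed window lies within the annotated gene.
Hba-a2: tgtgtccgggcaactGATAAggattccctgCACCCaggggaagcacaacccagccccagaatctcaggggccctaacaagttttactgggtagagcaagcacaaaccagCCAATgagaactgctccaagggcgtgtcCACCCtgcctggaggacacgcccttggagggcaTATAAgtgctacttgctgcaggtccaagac
Hbb-bs: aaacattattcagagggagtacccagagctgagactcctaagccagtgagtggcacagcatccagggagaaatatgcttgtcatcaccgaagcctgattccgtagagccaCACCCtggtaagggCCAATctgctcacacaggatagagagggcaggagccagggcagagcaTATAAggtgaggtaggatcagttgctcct
Hbb-bt: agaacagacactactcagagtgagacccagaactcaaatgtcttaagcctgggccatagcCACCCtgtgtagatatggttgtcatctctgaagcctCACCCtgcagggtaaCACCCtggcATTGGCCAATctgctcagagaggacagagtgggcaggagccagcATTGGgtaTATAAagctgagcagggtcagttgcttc

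Hba-a1 and Hba-a2 had the same promoter in 197 of 197 bases compared at a shift of 3 bases. At a shift of -1 base the Hbb-bs and Hbb-bt promoters matched in 118 of 199 bases, 59.3%. Both comparisons used 1 fixed shift without gaps, so any inserted or missing base would lower the share. Each alpha promoter held 1 GATAA, 2 CACCC, 1 CCAAT and 1 TATAA match. Hbb-bs held 1 CACCC, 1 CCAAT and 1 TATAA match, and Hbb-bt held 3, 3 and 1 of these, with no GATAA in either window. Of 32851 RefSeq promoters of the same length, 18.1% held GATAA, 45.5% CACCC, 29.3% CCAAT and 18.5% TATAA, and 0.481% held all 4. A match is a run of letters and not a measured binding site.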

How the data were processed

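Per the labels' protocols, RNA came from a column kit and libraries from a SMARTer mRNA kit; the same field holds cell culture text with dexamethasone and insulin. Builds named in the submitters' processing notes were GRCm38 and mm10. Aligner, quantifier and strandedness were not given in the sources used here. In 1 table, the authors deposited TPM for 158850 transcripts, 16416 of them assembled by the authors, and each library summed to 1e+06 TPM. Read depth is unknown. The Onway columns carry another prefix than the titles, and their numbers gave the match.

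Transcript TPM were summed per gene, with symbols as in the deposited table. Genes averaging 1 TPM or more were tested on log2(TPM + 1) with limma 3.58.1 in R 4.3.3 (trend, robust moderation, no covariate), adjusted by Benjamini-Hochberg over all 14192, with a threshold of 0.05. The log2(TPM + 1) scale understates changes of low genes. The fit was tested on simulated data. The 6 ratios and shares used an exact two-sided permutation test over 20 assignments. Named genes were all members, called genes of each of the 8 related lists or otherwise the 3 with the smallest p, and the 10 closest in ratio; Alas2 and any gene given as a standard marker were added, and some genes that the rule names are not reported here. Members and lists were chosen with earlier results of these data known. Coding sequences and gene positions are from GENCODE M21 on GRCm38 (7 of 8 members matched) and promoters from RefSeq on GRCm38.p6 (6 of 8 matched).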

Additional observations from a re-analysis of the deposited data

How the results depend on the processing

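Under the pseudocount, filter, moderation, scaling and Ensembl-only alternatives, and without both Control 4 and Onway 3, all 39 member differences computed kept their sign and none was called; the adjusted p values of members, with single libraries left out included, ran over 0.340 to 0.998. With single libraries left out, 12 of 30 changed sign. The log2 differences then ran over -0.77 to 0.34 for Hba-a1, -0.52 to 0.26 for Hba-a2, -0.77 to 0.22 for Hbb-bs, -0.74 to 0.20 for Hbb-bt and -0.46 to 0.23 for the Ahsp transcript. Differences of the group means ran over -7.45 to 4.79 percentage points for the globin share, 0.0769 to 0.166 for the alpha to beta ratio, -5.01 to 1.35 points for the Hba-a1 share, -0.458 to 0.218 points for the Hbb-bs share, 1.02 to 2.62 TPM per 1000000 TPM of globin for the embryonic genes and -2.16 to 2.29 for the Ahsp transcript per 1000 alpha globin. The globin share difference changed sign on the log2 scale (-0.14) and without mitochondrially encoded genes (-0.0184), the Hbb-bs share with Ensembl transcripts alone (0.0946), and the Ahsp transcript when set against all adult globins (0.251). Over all genes, 424 were lower and 33 higher in Onway. Median-ratio scaling gave 61 higher, leaving out both Control 4 and Onway 3 gave 207 lower and 97 higher, and leaving out single libraries gave 246 to 456 lower and 16 to 87 higher. The cause of these shifts was not tested. Mb kept its sign throughout, between -5.60 and -4.38 without single libraries, and lost its call without Onway 1, Onway 2 or Onway 3, with a pseudocount of 10 and without both Control 4 and Onway 3. The Ahsp transcript could not be given with Ensembl transcripts alone, since its 1 transcript was assembled. No paired analysis was possible because the groups share no replicate numbers.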
